A study of Arabidopsis thaliana with 15 samples.

Results

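The *anac046* knockout (KO) was compared with the wild type (WT) at 5 days after dark treatment (DAD), across all genes on the array. The comparison used 6 of the 15 arrays of the series, chosen by the genotype and treatment that the labels give, namely 3 KO arrays and 3 WT arrays. KO is a single transposon-tagged line with its insertion in *ANAC046*, and both genotypes are in the Columbia-0 background. Both groups had been kept in continuous darkness for 5 days, so no array without dark treatment enters the comparison. The labels call the dark-treated material seedlings grown on agar under foil, whereas the Methods call it leaves, and this was not settled. The sample titles give no age for these arrays, and the Methods start dark treatment several weeks after sowing. The Methods call the 3 arrays of a group biological replicates, but neither they nor the labels say whether these came from separate plantings. The p-values therefore measure only the spread between these arrays. A further 3 dark-treated arrays of plants expressing the chimeric repressor ANAC046-SRDX (SRDX), driven by the *35S* promoter, served only to estimate the spread of each gene. Per the Methods, the SRDX arrays came from independent lines. Standard errors (SE) and p-values below therefore also include the spread between these SRDX arrays.

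ANAC046 belongs to the NAC family of plant transcription factors, several of which promote leaf senescence. During senescence a leaf dismantles its chloroplasts and exports the nitrogen, phosphorus and other nutrients to younger organs. Autophagy, vacuolar proteases, nucleases, lipid breakdown in peroxisomes and transporters of the plasma membrane and the tonoplast take part in this recycling. In leaves kept in the dark, sugar starvation adds the breakdown of amino acids and fatty acids as respiratory substrates.

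All 3 WT arrays lay on 1 slide and all 3 KO arrays on another, which the third SRDX array shared, so an effect of slide and an effect of genotype cannot be told apart here. The share of spots well above background was 67.0 to 68.7% on the KO arrays and 76.3 to 80.9% on the WT arrays, and the SRDX array on the slide of the KO arrays had 68.4%. Before scaling, the median spot signal was 192 to 340 on the KO arrays and 382 to 437 on the WT arrays. The part of slide and signal strength in the results was not tested. After normalization, the correlation between arrays was 0.973 to 0.988 within KO and 0.994 to 0.996 within WT. KO replicate 1 stood apart from the other KO arrays and correlated most highly, at 0.990, with the SRDX array on its slide, although *ANAC046* was high on that SRDX array and low in KO replicate 1. Leaf tissue was present on all 6 arrays, and the 9 mesophyll markers had a summed log2 signal of 10.23 to 10.52 in KO and 9.62 to 9.72 in WT. These markers are photosynthesis genes, 8 of them were higher in KO, and some, such as *PRK*, are counted again in the lists below. Their sum therefore does not measure the amount of leaf tissue apart from those results. The summed root markers stood at 3.08 to 3.32 in KO and 3.01 to 3.24 in WT, and 3 of the 9 tested were not well above background on any KO array. Of 5 flower markers tested, 4 were lower in KO, with sums of 2.79 to 2.84 in KO and 4.62 to 5.05 in WT. That sum was mostly *PI*, a petal and stamen identity gene, which had log2 signals of 2.76, 2.72 and 2.72 in KO and 4.55, 5.01 and 4.70 in WT. *SEP3*, *AP1* and *AG* were not well above background on any KO array, and the calls of these 3 genes were lost without WT replicate 2 or 3 and, for 1 or 2 of them each, without any other array. Without 1 KO or WT array, 1 to 3 flower markers were lower, and 1 was among those well above background on all 6 arrays. With so few genes on each list, fewer cells of a type and less RNA per cell cannot be told apart, and the part of flower tissue in other results was not tested.

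*ANAC046* itself (*NAC046*, AT3G04060) had log2 signals of -4.63, -4.38 and -4.53 on the KO arrays, against 5.11, 5.35 and 5.22 on the WT arrays. Log2 signals are relative to the array median after quantile normalization. On the KO arrays its signal did not stand well above background, so the difference is given as a bound under this normalization, at least 272-fold lower in KO (limma adjusted p = 1.19e-08). The size depends on the processing, and the log2 change was -6.49 with another background correction (normexp) and -6.73 in the authors' normalized table.

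Among 25359 genes tested with limma, 4577 (18.0%) were higher and 3611 (14.2%) lower in KO at a Benjamini-Hochberg adjusted p under 0.15. The Methods state the same limit, but for q-values and for a fixed number of the most upregulated genes, so these counts do not follow the paper's definition. Every KO array lay above every WT array for 6697 genes (26.4%) and below for 5247 (20.7%). These shares are the background for all counts of gene list members that follow. Lists are described by their counts and by the median log2 change, KO minus WT, of their tested members, which was 0.02 over all genes. When each array was instead scaled to its 75th percentile, 3749 genes were higher and 5492 lower, so the balance between directions depends on the scaling. Among 21160 genes well above background on all 6 arrays, 4503 were higher and 2265 lower, so many of the genes counted as lower entered the test only through the WT arrays, where they are high. Fewer genes passed when a single KO or WT array was left out, and more, 5057 higher and 4628 lower, when SRDX replicate 3 was left out. In a fit of the KO and WT arrays alone, 6118 genes were higher and 5364 lower. Without KO replicate 3, 2304 genes were higher and 2031 lower, and without WT replicates 1, 2 and 3, 2422, 1813 and 2337 were higher and 1830, 1243 and 1673 lower. Genes named with a value below passed the limit and kept their call without any single KO or WT array, unless a sentence says otherwise.

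The 15 largest increases among genes with a symbol that passed the test, were well above background on all 6 arrays and had KO and WT arrays that did not overlap ranged between 4.51- and 7.87-fold. *CER2*, which is needed for the longest wax chains, had log2 signals of 0.12, 0.32 and -0.08 in KO and -2.78, -2.67 and -3.13 in WT, a 7.87-fold difference (log2 change 2.98 ± 0.43, SE, n = 3 each, limma adjusted p = 0.0137). The cold- and abscisic acid-induced gene *KIN2* had 9.27, 8.50 and 8.48 in KO and 6.21, 5.39 and 5.85 in WT, a 7.64-fold difference, and its close copy *KIN1*, whose probe can share signal with it, was 6.87-fold higher. *LTI78*, another cold-induced gene, was 7.14-fold higher, the heat shock factor gene *HSFA6A* 5.15-fold and *GATA4* 4.51-fold. Another *LTI78* probe, well above background on all 6 arrays, had a smaller log2 change of 0.86, against 2.84 for the probe used. The lipid-transfer protein genes *LTP5* and *LTP2* and the auxin-induced *SAUR23* had 5.17-, 4.92- and 4.65-fold increases. The others were *MEE47* (7.76-fold), the ABC transporter gene *ABCI16* (5.89-fold), *RbcX1* (5.82-fold), *DAA1* (5.41-fold), and *HB21* (AT2G02540) and *KDR* (4.54-fold each). The call of *RbcX1* was lost without any 1 KO or WT array and with 75th percentile scaling, that of *ABCI16* without WT replicate 2, and that of *KDR* without KO replicate 1 or 3 or WT replicate 1 or 3. For *RbcX1* the SRDX arrays, whose spread enters the test, had log2 signals of -4.30, -0.54 and 0.03.

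The 15 largest decreases by the same rule ranged between 5.89- and 14.8-fold, and several were deepest on KO replicate 1. *MT1C*, a metal-binding metallothionein, had log2 signals of -0.71, 2.0 and 1.89 in KO and 4.51, 5.4 and 4.92 in WT, a 14.8-fold difference (limma adjusted p = 0.0205). *PGAZAT*, a polygalacturonase gene of abscission zones, had 3.92, 6.60 and 7.39 in KO and 9.09, 9.19 and 9.02 in WT. *PYL3*, an abscisic acid receptor gene, had -1.33, -0.10 and 0.95 in KO and 2.67, 2.78 and 2.68 in WT. In each of these genes the 3 WT arrays lay within 1 log2 unit of each other, and KO replicate 1 was the lowest KO array. *FAD3*, which encodes a desaturase of membrane fatty acids, was 5.89-fold lower, *CSLB03*, of the cellulose synthase-like genes, 7.38-fold, and the phytosulfokine precursor gene *PSK6* 6.22-fold. The β-glucosidase genes *BGLU15* and *BGLU18*, the second of which releases abscisic acid from its glucose ester, were 7.31- and 6.91-fold lower. *MAPKKK17*, a kinase gene of abscisic acid signalling, had -0.98, 2.98 and 3.85 in KO and 6.18, 5.74 and 5.56 in WT. Its call (adjusted p = 0.0676) was lost when any 1 WT array was left out. *NCED2*, of the family that makes abscisic acid precursors, was 6.91-fold lower, with its call likewise lost without any 1 WT array. *MAN1*, *UMAMIT25* (call lost without WT replicate 2) and *DIP2* were 6.44-, 6.32- and 6.14-fold lower, and *CYP83A1* and *MAM1* are described with the glucosinolate genes.

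**Figure D1:**
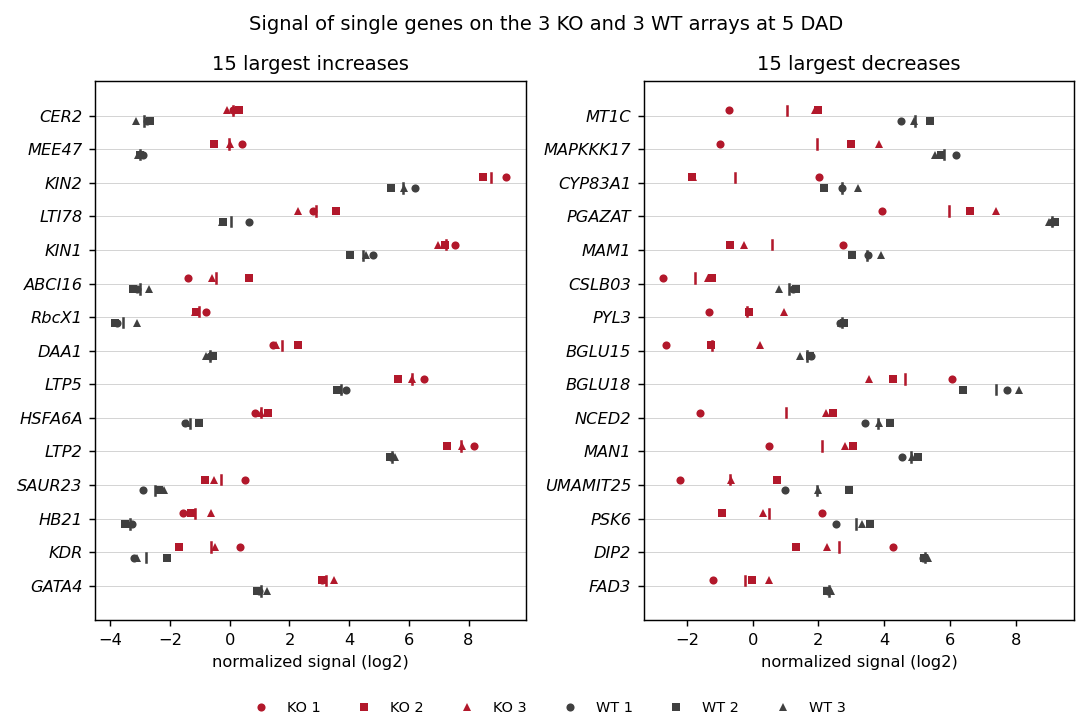
Log2 signal of the 15 genes with the largest increase (left) and the 15 with the largest decrease (right) in KO, with 1 symbol per array, KO in red above WT in grey, and bars for the group means. For *MT1C*, *MAPKKK17* and *PGAZAT* KO replicate 1 (circle) lies well below the other KO arrays, whereas for *CYP83A1* and *MAM1* it lies near the WT arrays.

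Genes of the photosynthetic apparatus were higher in KO. Of 21 light-harvesting antenna genes, 17 (81.0%) were higher and 0 lower, with a median change of 0.98, and between 13 and 17 passed without any 1 KO or WT array. The antenna gene *CAB1* had log2 signals of 9.81, 9.92 and 9.90 in KO and 8.56, 8.52 and 8.59 in WT, with no overlap (log2 change 1.32 ± 0.22, SE, n = 3 each, limma adjusted p = 0.0155). *CAB3* and *LHB1B1*, close copies of *CAB1* whose probes can share signal, were 2.52- and 2.79-fold higher. Of 20 Calvin cycle genes, 12 were higher and 0 lower. *PRK*, the phosphoribulokinase gene that regenerates the CO2 acceptor, had 3.69, 3.81 and 4.30 in KO and 2.27, 2.49 and 2.44 in WT (limma adjusted p = 0.0154). Other probes of *PRK* had smaller log2 changes of 0.87, 0.48 and 0.35, against 1.53 for the probe used. The count for this cycle rested on several arrays, since it was 3 without KO replicate 3 and 4, 3 and 6 without WT replicates 1, 2 and 3.

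Smaller shares of the remaining chloroplast lists passed. Of 13 photosystem I, 12 photosystem II and 13 photorespiration genes, 5 each were higher and none lower, by medians of 0.19, 0.35 and 0.35. *NPQ4*, the PsbS protein of heat dissipation, *PSBY* and *PSBP-2* were 2.14-, 2.12- and 2.11-fold higher, and so were *GDCH*, of the glycine decarboxylase complex, by 2.22-fold and *SHM1*, the mitochondrial serine hydroxymethyltransferase, by 1.77-fold. Another *SHM1* probe, also well above background, had a log2 change of only 0.03, against 0.82 for the probe used. These counts were smaller without some arrays. Without KO replicate 3 and WT replicates 1, 2 and 3, 2, 1, 0 and 3 photosystem I genes passed, and 3 photosystem II genes passed without KO replicate 3 or WT replicate 1 or 2. Of the photorespiration genes, 2 passed without WT replicate 2 and 3 without KO replicate 2 or 3 or WT replicate 1 or 3. Of 20 plastid ribosomal protein genes, 5 were higher and 0 lower, with 2 higher without KO replicate 3 or WT replicate 1 or 2 and 3 without WT replicate 3. In chlorophyll synthesis 3 of 23 genes were higher, a share of 13.0% that was below the background of all genes, with *CHLM* and *CRD1* 1.74- and 1.67-fold higher. Among 31 genes of the FtsH, Deg and Clp proteases, 2 were higher and 6 lower. The lumen protease gene *DEG5* was 2.26-fold higher and *FTSH6* 3.27-fold lower, and the list had 2 genes lower without KO replicate 1 and 1 without KO replicate 3 or any 1 WT array.

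**Figure D2:**
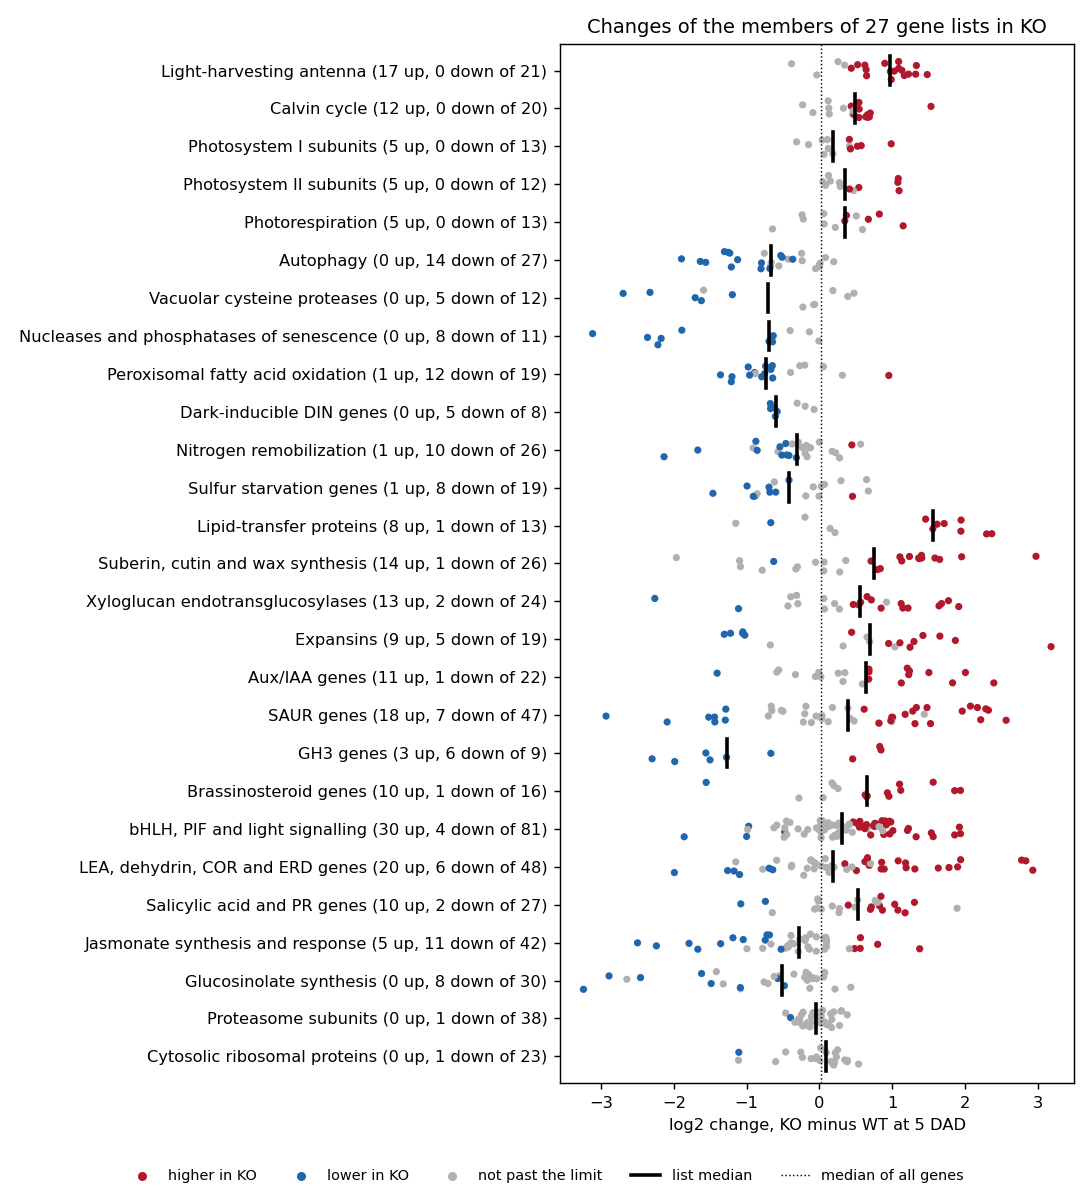
Log2 change, KO minus WT at 5 DAD, of every tested member of 27 gene lists, with members past the limit in red (higher) or blue (lower), other members in grey and a bar for the median of the list. Antenna, lipid-transfer protein and brassinosteroid genes lie mostly right of the median of all genes (dotted), autophagy and nuclease genes left of it, and proteasome and cytosolic ribosomal protein genes close to it.

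Genes of cellular breakdown were lower in KO. Of 27 autophagy genes, which enclose cell contents for delivery to the vacuole, 14 were lower and 0 higher, with a median change of -0.66. *APG7*, the enzyme that activates the ubiquitin-like ATG8 proteins, had log2 signals of 4.53, 5.09 and 4.80 in KO and 6.36, 6.56 and 6.41 in WT (log2 change -1.64 ± 0.24, SE, n = 3 each, limma adjusted p = 0.0137). *ATG8H* had 7.30, 6.64 and 6.88 in KO and 8.32, 8.55 and 8.65 in WT. *ATG8E* was 9.16 on KO replicate 1 but 6.53 and 6.77 on the other KO arrays, against 9.18, 9.51 and 9.45 in WT, and its call (adjusted p = 0.075) was lost without KO replicate 2 or 3 or any 1 WT array. The count was 9 without KO replicate 3 or WT replicate 1 or 3 and 7 without WT replicate 2.

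Of 11 nucleases and phosphatases of senescence, 8 (72.7%) were lower and 0 higher. *RNS1*, a ribonuclease gene, was above background on 2 of 3 KO arrays and had -3.63, -0.68 and -1.12 in KO and 1.24, 1.0 and 1.69 in WT. *BFN1*, a nuclease of senescence and programmed cell death, had 1.51, 3.93 and 3.21 in KO and 4.91, 5.51 and 5.30 in WT. KO replicate 1 was the lowest array for both genes, and no KO array overlapped WT. This count was 5, 4 and 5 without WT replicates 1, 2 and 3. Of 12 vacuolar cysteine proteases and processing enzymes, 5 were lower and 0 higher. Among them *CEP1* and *CEP2* were 5.02- and 3.26-fold lower, and both calls were lost without WT replicate 2, which left 2 members past the limit. By contrast, of 38 proteasome subunit genes, which degrade proteins outside the vacuole, 1 was lower and 0 higher, under the background of all genes, with a median change of -0.05.

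The routes that feed amino acids and fatty acids into respiration were also lower in part. Of 19 genes of peroxisomal fatty acid oxidation and the glyoxylate cycle, 12 were lower and 1 higher, with a median change of -0.74. *PKT4* and *KAT5*, encoding thiolases that shorten the fatty acid chain, were 2.30- and 2.31-fold lower, while the peroxisomal malate dehydrogenase gene *PMDH2*, with log2 signals of 4.24, 4.31 and 4.46 in KO and 3.36, 3.42 and 3.37 in WT, was the member that was higher. The count of members lower was 7 without KO replicate 1, 5 without KO replicate 3, and 4, 3 and 3 without WT replicates 1, 2 and 3. Of 14 genes of branched-chain amino acid and lysine breakdown, 3 were lower and 0 higher, among them *D2HGDH*, which oxidizes hydroxyglutarate, by 1.59-fold, and 1 member was lower without any 1 WT array. Of 8 dark-inducible *DIN* genes, 5 were lower and 0 higher, by a median of -0.59, but 1 was lower with 75th percentile scaling, 2 without KO replicate 1, 1 without KO replicate 3 and 0 without any 1 WT array. The *DIN* and amino acid lists overlap, so their counts are not independent. Starch and maltose breakdown had 3 of 18 genes higher and 3 lower, and 1 and 0 without WT replicate 2. The mitochondrial alternative oxidase gene *AOX1A* was 2.37-fold lower.

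Transporters and nutrient-response genes changed in both directions, with more of them lower. Of 26 genes of nitrogen remobilization, 10 were lower and 1 higher, and 2 were lower without KO replicate 3 or any 1 WT array and 5 without KO replicate 1. The proline transporter gene *PROT1* had log2 signals of 0.97, 0.21 and 0.10 in KO and 1.82, 2.21 and 2.25 in WT. *NRT1.5*, a nitrate transporter gene of xylem loading, had 3.36, 4.30 and 3.90 in KO and 5.85, 6.07 and 5.85 in WT. All genes whose symbol begins with *NRT* gave 7 lower and 0 higher of 12, and *NRT2:1*, of high-affinity nitrate uptake, was 2.66-fold lower. *LBD37* and *LBD38*, which repress nitrate-response genes, were 2.19- and 1.91-fold higher. Of 30 sugar transporter genes, 6 were lower and 3 higher, and 3, 1 and 3 were lower without WT replicates 1, 2 and 3. The sucrose and hexose transporters of the SWEET group were split, with *SWEET4* 2.84-fold higher and *SAG29* (*SWEET15*), a senescence-associated gene, at -3.09, -0.55 and -1.13 in KO and 0.54, 4.07 and 0.87 in WT. *SAG29* was above background on 2 of 3 KO arrays and was not called without WT replicate 2, the array that was far above the others.

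Of 24 phosphate starvation genes, 7 were lower and 1 higher, and 4 were lower without KO replicate 1 or any 1 WT array. The pyrophosphatase gene *PS2* (AT1G73010) had log2 signals of 6.12, 6.0 and 7.04 in KO and 8.12, 8.62 and 8.31 in WT, *SPX1*, a sensor of phosphate status, was 2.88-fold lower, and *G3Pp1*, a glycerol-3-phosphate permease gene, 2.64-fold. Of 19 sulfur starvation genes, 8 were lower and 1 higher, and without WT replicates 1, 2 and 3 the counts lower were 2, 1 and 3, and without KO replicate 3, 4. *SULTR4;1*, which exports sulfate from the vacuole, was 1.88-fold lower. Iron genes had 5 of 23 lower and 3 higher, with *NRAMP3*, which exports iron from the vacuole, 2.48-fold lower, and 2 iron genes were lower without KO replicate 2 or 3 or any 1 WT array. Of 5 metallothionein genes tested, 2 were lower. Besides *MT1C*, this was *MT1A*, with 8.69, 8.81 and 9.06 in KO and 10.61, 10.50 and 10.63 in WT.

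Several lists of genes that loosen or build the growing cell wall had members higher in KO. Of 24 xyloglucan endotransglucosylase genes, whose enzymes cut and rejoin wall polymers, 13 were higher and 2 lower, and 8 were higher without WT replicate 3. *XTH9* had log2 signals of 2.67, 2.37 and 2.85 in KO and 0.81, 0.65 and 1.12 in WT, and *XTH33* was 3.20-fold higher. Of 19 expansin genes, 9 were higher and 5 lower under quantile normalization, but 7 and 7 with 75th percentile scaling. Among expansins well above background on all 6 arrays, 7 were higher and 2 lower, so some of the 5 passed the filter only through WT, where they are high. *EXLA2* had -1.14, -0.97 and -1.97 in KO and -3.19, -3.05 and -2.81 in WT. *EXPA16*, which was above background on 1 of 3 WT arrays, had -0.55, -1.49 and -1.03 in KO and -3.75, -4.21 and -4.66 in WT. Of 13 pectin methylesterases and their inhibitors, which stiffen or soften pectin, 4 were higher and 0 lower, and *PME44* was 2.95-fold higher. *FLA9*, a fasciclin-like arabinogalactan protein gene, was 2.95-fold higher among 9 higher and 6 lower of 36 arabinogalactan genes, where 5 were higher without WT replicate 2 or 3. *AGP14* was above background on only 1 KO array and stood at -1.94, -4.90 and -3.91 in KO and -0.16, 0.82 and 0.46 in WT. Cellulose synthases and their relatives were mixed, with 4 of 26 higher and 6 lower, and 3 lower without WT replicate 1 or 3. Of 15 tubulin genes, 5 were higher and 0 lower, with 3 and 2 higher without KO replicates 1 and 3 and 1 without KO replicate 2 or any 1 WT array.

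Water channels differed by member. Of 22 aquaporin genes, 7 were higher and 3 lower, and 4 were higher without WT replicate 2. The plasma membrane channel gene *PIP1;5* had log2 signals of 9.29, 9.03 and 9.09 in KO and 7.68, 7.55 and 7.45 in WT, and the tonoplast gene *DELTA-TIP* had 10.43, 9.97 and 10.21 in KO and 8.53, 8.60 and 8.79 in WT. *PIP2;4* was 4.10-fold lower and *RD28* (*PIP2;3*) 1.73-fold lower.

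The *Aux/IAA* and brassinosteroid lists also had more members higher than lower in KO, whereas the *GH3* list had more lower. For the *SAUR* genes the median change depended on the scaling. Of 22 *Aux/IAA* genes, repressors that auxin removes and that auxin induces, 11 (50.0%) were higher and 1 lower, and 11 were higher whichever KO or WT array was left out. *SHY2* (*IAA3*) had log2 signals of 4.55, 4.07 and 4.49 in KO and 2.56, 2.22 and 2.29 in WT (log2 change 2.01 ± 0.20, SE, n = 3 each, limma adjusted p = 0.00772). *IAA29* was not well above background on any WT array and was at least 4.08-fold higher under quantile normalization. With 75th percentile scaling its log2 change was 1.615. Of 9 *GH3* genes tested, whose enzymes join hormones to amino acids, 6 were lower and 3 higher, and 5 or 6 were lower whichever KO or WT array was left out. *BRU6* (*GH3.2*) had 1.51, 1.95 and 2.77 in KO and 4.58, 4.43 and 4.12 in WT, and *GH3.17*, 2.27, 3.40 and 2.51 in KO and 4.08, 5.11 and 4.95 in WT. Both are known to act on auxin. *DFL2*, another family member, was 1.78-fold higher.

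Of 47 *SAUR* genes, small auxin-induced regulators of cell expansion, 18 were higher and 7 lower, by a median of 0.39, but 11 were higher and 9 lower, by a median of -0.02, with 75th percentile scaling. Among *SAUR* genes well above background on all 6 arrays, 17 were higher and 3 lower. The median change of the *SAUR* genes was 1.12 on KO replicate 1 and 0.06 and 0.10 on the other KO arrays. The count higher was 11 without KO replicate 3 or WT replicate 1, 7 without WT replicate 2 and 8 without WT replicate 3. *SAUR1* (AT4G34770) had log2 signals of 0.69, -0.07 and 0.62 in KO and -1.62, -2.67 and -2.17 in WT. Among 29 auxin response factor and transport genes, 10 were higher and 2 lower, with 5 and 4 higher without KO replicates 2 and 3, 2 without WT replicate 2 and 4 without WT replicate 3. The efflux carrier gene *PIN4* was 2.58-fold higher and *MP* (*ARF5*), a response factor of leaf veins, 3.63-fold lower.

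Of 16 brassinosteroid genes, 10 (62.5%) were higher and 1 lower, and 7 to 10 were higher whichever KO or WT array was left out. The brassinosteroid-induced transcription factor genes *BEE1*, *BEE2* and *BEE3* were 3.83-, 2.96- and 3.63-fold higher. *BEE1* had log2 signals of 2.88, 2.21 and 2.51 in KO and 0.67, 0.45 and 0.67 in WT. Gibberellin genes had 6 of 20 higher and 2 lower, with 3 higher without WT replicate 1, and *GA3OX1*, of gibberellin synthesis, was 2.52-fold higher. Of 15 type-A response regulator and cytokinin oxidase genes, 4 were lower and 1 higher, and 3 or 4 were lower whichever KO or WT array was left out. *CKX2*, which degrades cytokinin, had -1.06, 0.84 and 1.01 in KO and 2.73, 2.58 and 2.66 in WT. The response regulators *RR16* and *RR17* were 2.53- and 2.21-fold lower, and *ARR9* 2.32-fold higher. Among 30 ethylene genes, 4 were higher and 6 lower, the first under and the second above the background of all genes.

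Genes that build the waxy leaf surface were higher in KO, and lipid-transfer proteins had the highest median of the 76 lists. Of 13 lipid-transfer protein genes, which are found in the wall of the epidermis, 8 (61.5%) were higher and 1 lower, by a median of 1.56, and 7 or 8 were higher whichever KO or WT array was left out. *LTP2* had log2 signals of 8.17, 7.27 and 7.78 in KO and 5.41, 5.38 and 5.53 in WT (limma adjusted p = 0.0154), and *LTP5*, 6.51, 5.65 and 6.11 in KO and 3.90, 3.60 and 3.66 in WT. The median of the list was 2.1, 1.04 and 1.46 on KO replicates 1, 2 and 3, between -0.07 and 0.08 on the WT arrays. Of 26 suberin, cutin and wax genes, 14 were higher and 1 lower, and 12 and 5 with 75th percentile scaling, where the median was 0.28 in place of 0.75. The cutin enzyme genes *GPAT8* and *CYP86A2* were 3.88- and 3.14-fold higher. *GPAT8* had 0.62, 0.92 and 0.96 in KO and -1.16, -1.13 and -1.08 in WT. *ABCG12*, which exports wax from the cell, was 2.36-fold higher. Of 14 genes with a symbol beginning with *KCS*, the enzymes that start each round of fatty acid elongation for waxes, 10 were higher and 1 lower, by a median of 1.13.

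Stress genes did not move as a block. Of 48 LEA, dehydrin, *COR* and *ERD* genes, protective proteins of drought and cold, 20 (41.7%) were higher and 6 lower, and 13 were higher without KO replicate 3 or WT replicate 2. The median of the list was 0.19, far below the changes of *KIN1* and *KIN2* given above. *LEA18* was lower, at -0.38, 0.58 and 1.87 in KO and 2.72, 2.79 and 2.53 in WT, but its call was lost without any 1 WT array. Among 53 abscisic acid genes, 8 were higher and 11 lower, and 4 and 4 without WT replicate 2, with *CYP707A2*, which degrades the hormone, 2.76-fold higher and the receptor gene *RCAR3* 2.19-fold higher, against *PYL3* lower. Of 54 heat shock proteins and factors, 8 were higher and 8 lower, but 3 lower without WT replicate 2, 4 without KO replicate 3 or WT replicate 3 and 5 without KO replicate 1 or WT replicate 1, and *HSFC1*, like *HSFA6A* a heat shock factor gene, was 3.39-fold higher. Glutathione transferases had 4 of 45 higher and 5 lower, both under the background of all genes, although *GSTU26* had log2 signals of 1.56, 1.31 and 1.21 in KO and -0.74, -0.77 and -0.64 in WT. Antioxidant enzymes had 8 of 31 higher and 5 lower, but 2 higher without KO replicate 3 or WT replicate 1 or 3 and 1 without WT replicate 2, and 0 lower without WT replicate 2.

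Of 30 genes of glucosinolate synthesis, which make sulfur-containing defence compounds, 8 were lower and 0 higher. Here KO replicate 1 lay nearest to WT. *CYP83A1*, of the aliphatic branch, had log2 signals of 2.02, -1.83 and -1.80 in KO and 2.73, 2.17 and 3.21 in WT, and *MAM1*, which lengthens the methionine side chain, 2.74, -0.68 and -0.28 in KO and 3.51, 3.02 and 3.92 in WT. Both calls were lost without KO replicate 2 or 3 or any 1 WT array, and the list had 12 members lower without KO replicate 1, 2 without KO replicate 2 or 3 or WT replicate 1 or 2 and 1 without WT replicate 3. The median of the list was -0.12, -0.68 and -0.43 on KO replicates 1, 2 and 3.

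Of 42 jasmonate genes, 11 were lower and 5 higher, and 7 were lower without KO replicate 2 or WT replicate 2, 6 without KO replicate 3 and 5 without WT replicate 1 or 3. *JMT*, which makes methyl jasmonate, had log2 signals of -0.17, -1.97 and -0.92 in KO and 1.42, 0.97 and 1.27 in WT. *LOX2*, the chloroplast lipoxygenase of jasmonate synthesis, had 8.16, 6.83 and 6.34 in KO and 9.44, 8.10 and 9.18 in WT. KO replicate 1 overlapped WT for *LOX2*, and its call was lost without KO replicate 3 or WT replicate 1 or 3. Of 27 salicylic acid and pathogenesis-related genes, 10 were higher and 2 lower, and between 3 and 5 were higher without KO replicate 2 or 3 or any 1 WT array. The aspartyl protease gene *AED1* (AT5G10760) was 2.11-fold higher. Of 30 cysteine-rich receptor-like kinase genes, 10 were higher and 0 lower, with 6 higher without KO replicate 3 or WT replicate 1 or 3 and 4 without WT replicate 2, and *CRK21* was 3.74-fold higher. Of 36 defensin and thionin genes, most of them at low signal, 9 were lower and 2 higher, and 17 lower and 2 higher with 75th percentile scaling. Among members well above background on all 6 arrays, 2 were lower and 2 higher, so most of the 9 passed the filter only through WT, where they are high. Without KO replicate 3 and WT replicates 2 and 3, 4, 2 and 1 were lower.

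Large enzyme families changed in both directions. Of 60 UDP-glycosyltransferase genes, which attach sugars to small molecules, 17 were lower and 6 higher, and *UGT85A7* had log2 signals of -0.69, -1.55 and -1.07 in KO and 0.42, 0.61 and 0.68 in WT. The count lower was 11 without KO replicate 3 and 10, 7 and 8 without WT replicates 1, 2 and 3. Of 173 cytochrome P450 genes, 41 were lower and 28 higher, with 24, 17 and 22 lower without WT replicates 1, 2 and 3. Among those well above background on all 6 arrays 26 were lower and 25 higher instead. Of 92 ABC transporter genes, 16 were lower and 11 higher, with 9, 8 and 10 lower without WT replicates 1, 2 and 3. *ABCG31*, which has a role in the pollen coat, had 4.10, 5.36 and 5.29 in KO and 7.35, 7.13 and 7.03 in WT, and *ABCG30* was 5.46-fold lower. Flower markers were lower in the same samples, as given above. Of 23 *BGLU* β-glucosidase genes, 10 were lower and 0 higher.

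Transcription factor families differed from one another. Of 81 bHLH, PIF and light signalling genes, 30 (37.0%) were higher and 4 lower, 32 and 7 with 75th percentile scaling, and 17 were higher without WT replicate 2. *BEE1* and *BEE3* were counted both here and among the brassinosteroid genes. *PKS1*, a substrate of phytochrome that takes part in bending towards light, had log2 signals of 2.97, 3.11 and 3.70 in KO and 1.25, 1.24 and 1.51 in WT, whereas *SPA1*, a repressor of light responses, had 3.25, 3.73 and 3.22 in KO and 4.38, 4.45 and 4.29 in WT. Of 17 *BBX* genes, zinc-finger factors of light signalling, 8 were higher and 1 lower. Of 15 *TCP* genes, regulators of leaf growth, 7 were higher and 0 lower, and *TCP11*, with 5.39, 5.41 and 5.69 in KO and 4.32, 4.23 and 4.38 in WT, was counted among 28 clock genes, of which 7 were higher and 3 lower. Without WT replicates 1, 2 and 3, 4, 3 and 4 clock genes were higher. Of 14 DOF factors, 5 were higher and 0 lower, 3 without KO replicate 3 or WT replicate 1 and 2 without WT replicate 2, with *OBP4* 2.28-fold higher. Of 35 homeodomain factors, 10 were higher and 4 lower, 5 higher without WT replicate 2, and *HAT2*, an auxin-induced member, was 2.75-fold lower.

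The remaining families were closer to the background of all genes. WRKY factors, many of which act in defence and senescence, had 10 of 64 higher and 9 lower, shares of 15.6% and 14.1%, with 4 higher and 1 lower without WT replicate 2. MYB factors had 19 of 76 higher and 13 lower, and 16 and 21 with 75th percentile scaling. Among MYB factors well above background on all 6 arrays 18 were higher and 7 lower, and the counts fell to 10 higher without KO replicate 3 or WT replicate 3, 12 and 11 without WT replicates 1 and 2, and 2 lower without WT replicate 2, with *MYB50* 3.32-fold higher and *MYB101* 3.22-fold lower. ERF and DREB factors had 12 of 56 higher and 6 lower, but 3 to 5 higher without KO replicate 1 or 3 or any 1 WT array, and bZIP factors 9 of 47 higher and 9 lower, and 3 and 3 without WT replicate 2. *bZIP5*, above background on 1 of 3 KO arrays, had -3.19, -2.86 and -2.19 in KO and 0.47, 0.39 and 0.89 in WT, and the bZIP genes *TGA7* and *TGA9* were 2.44- and 2.41-fold lower. Among genes of basic cell growth, shares were at or below the background, except that 6 of 30 DNA replication genes were higher, a count of 2 without WT replicate 2 and 3 without WT replicate 3. Of 23 cytosolic ribosomal proteins that the annotation names, 1 was lower and 0 higher, and the list was incomplete. Ribosome biogenesis had 2 of 18 higher and 1 lower, and histones 3 of 21 higher and 1 lower. Of the DNA replication genes 2 were lower, with *PCNA1*, the sliding clamp of DNA polymerase, 2.25-fold higher. Cyclins and mitotic kinases had 5 of 32 higher and 1 lower under quantile normalization but 3 higher and 10 lower with 75th percentile scaling. The mitotic kinase gene *AUR2* was at least 5.44-fold lower in KO, where no array showed it well above background.

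When genes were grouped only by the leading letters of their symbol, 137 groups had at least 10 tested members, 2702 genes in all. The largest shares of members higher were those of *KCS* (71.4%), *OFP* (6 of 10), *XTH* (52.4%), *CRF* (50.0%, 5 of 10), *BBX* (47.1%) and *TCP* (46.7%). The *OFP* genes encode ovate family growth repressors and the *CRF* genes cytokinin response factors. The largest shares lower were those of *NRT* (58.3%), *APG* and *FTSH* (50.0% each), *PAP* (47.8%, 11 of 23), *BGLU* (43.5%) and *GH* (42.9%, 6 of 14). The letters *APG*, *PAP* and *GH* are shared by unrelated genes, so these are not families, and of the *APG* and *GH* groups 3 and 4 members were higher. With 75th percentile scaling, 3 *CRF* genes were higher, and without 1 KO or WT array between 1 and 4 were. Without WT replicate 2, 3 *BBX* and 4 *TCP* genes were higher, and 2 *NRT*, 1 *FTSH* and 5 *PAP* genes lower, whereas 7 *KCS* and 8 *XTH* genes were higher and 6 *BGLU* genes lower.

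Differences between the KO arrays ran through many of these lists. KO replicate 1 was the lowest KO array for 11920 genes (47.0%) and the highest for 7055 (27.8%). The median change of the metallothioneins was 0.29 on KO replicate 1 and -1.77 and -1.52 on the other KO arrays, and that of branched-chain amino acid breakdown was -0.91 on KO replicate 1 and -0.13 and -0.34 on the others. By contrast, the antenna list stood at 0.76, 0.89 and 1.06, the nucleases and phosphatases at -0.94, -0.80 and -0.82 and the *GH3* genes at -1.46, -1.02 and -0.97 on KO replicates 1, 2 and 3, all clear of the WT arrays. Without KO replicate 1, 4381 genes were higher and 3232 lower. These totals do not measure its part in single lists. Without it, 12 glucosinolate genes were lower in place of 8, and 7 peroxisomal genes in place of 12.

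**Figure D3:**
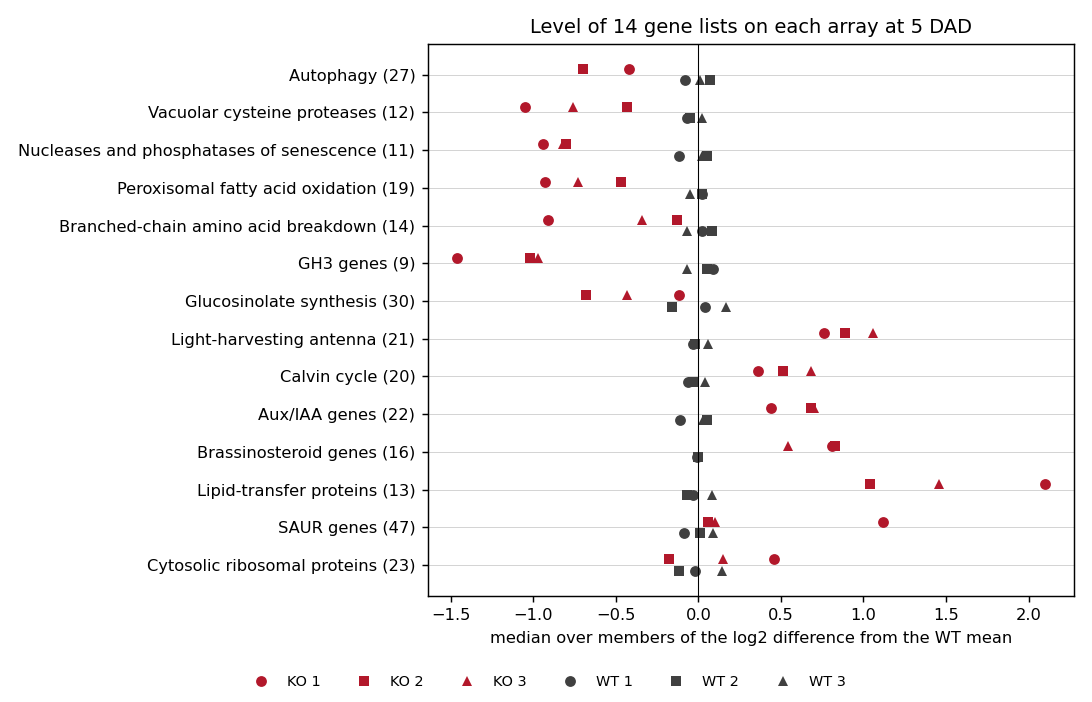
Median over the tested members (number in parentheses) of the log2 difference from the WT mean, on each of the 3 KO arrays (red, upper row of each pair) and 3 WT arrays (grey, lower row), for 14 gene lists. The KO arrays are clear of the WT arrays for the antenna, Calvin cycle, nuclease and *GH3* lists, KO replicate 1 stands apart for the *SAUR* and lipid-transfer protein genes, and KO and WT arrays overlap for cytosolic ribosomal proteins.

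**Figure D4:**
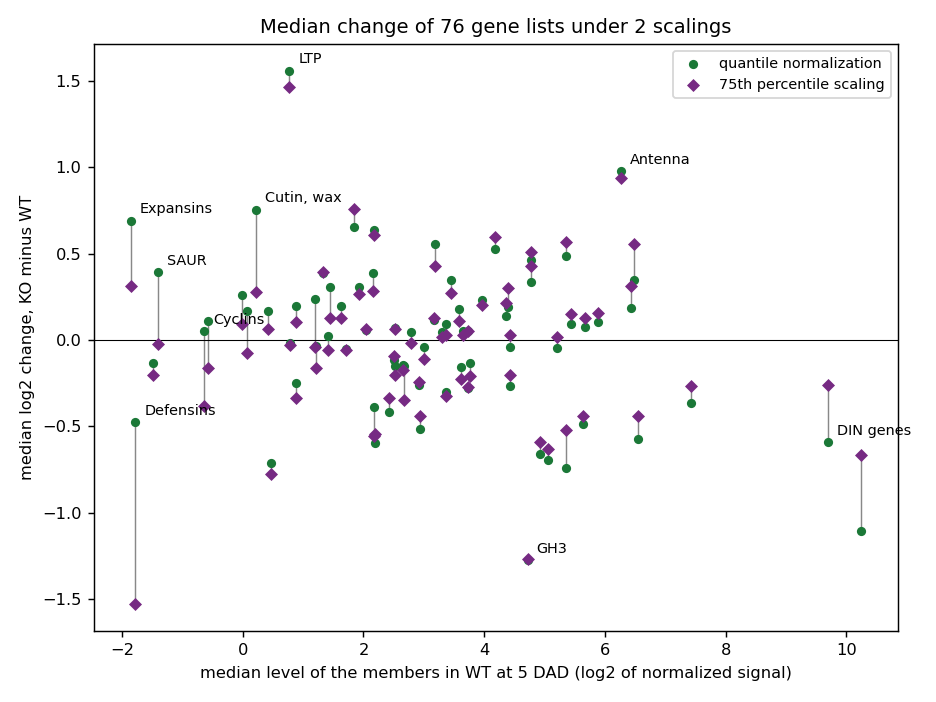
Median log2 change, KO minus WT, of 76 gene lists against the median level of their members in WT, under quantile normalization (circles) and 75th percentile scaling (diamonds), joined by a line for each list. Lists at low signal, such as defensins, *SAUR* genes, expansins and cyclins, shift lower under 75th percentile scaling, whereas the antenna, lipid-transfer protein and *GH3* lists keep their medians nearly in place and the *DIN* genes, at high signal, shift higher.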

How the data were processed

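RNA of KO, WT and SRDX plants at 5 DAD was measured on one-colour Agilent arrays, 3 per group, within a series of 15. The deposited scanner files hold an intensity per spot, which Feature Extraction (11.5.1.1 per the file headers) had background-subtracted and detrended. The authors also deposited a table of natural log values, divided by the array median and quantile normalized, which served as an alternative; its log base was settled from the values. Here outlier spots were left out of the processed intensities, each array was divided by its median, repeated spots were averaged, and the 15 arrays were quantile normalized and taken to log2. Of 43603 probes, 34348 (78.8%) had a locus, and names came from RefSeq TAIR10.1. The brightest probe stood for a gene, and other probes of the same gene could show smaller changes. Genes well above background on all arrays of KO or of WT were tested with limma 3.58.1 in R 4.3.3 on 9 arrays, with Benjamini-Hochberg adjustment and a limit of 0.15, and the fit was tested on simulated data.

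Lists and genes were chosen with earlier results of these data known, and loci that only share a symbol with a list member were dropped after values had been seen. Named genes are *ANAC046* and the 15 largest increases and decreases among genes whose KO and WT arrays did not overlap. Others were drawn from bounds for undetected genes, the 3 largest changes each way in a list, the 6 leading letter groups each way, and markers. Not every gene that this rule allows is named. Some lists have no member named, and the largest decreases among the vacuolar proteases and the peroxisomal genes were left out. A bound sets the brighter group's mean against the lowest detected signal of the dimmer group's arrays. Alternatives changed the scaling, background correction, filter, probes, arrays, limit and blocks. Genomic sequence was not used here.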

Additional observations from a re-analysis of the deposited data

How the results depend on the processing

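Slide and genotype coincide, the array number limits the precision, and dim probes limit what can be said of genes at low signal. With slide as a random block, 2860 genes were higher and 2000 lower. Only the SRDX arrays were split between slides, so this fit cannot remove an effect of slide from KO against WT. With q-values by the method of Storey the counts were 7216 and 6260, and with a limit of 0.05 they were 1894 and 1200. Scaling to the 75th percentile gave 5492 genes lower, and 2265 were lower among genes well above background on all 6 arrays. Leaving out 1 array gave 1813 to 5057 genes higher and 1243 to 4628 lower. *ANAC046* was lower in every fit that could test it, by a log2 change of -6.49 with normexp background correction and -10.64 with 75th percentile scaling. The replicate numbers did not pair the arrays (correlations of -0.187, -0.052 and -0.012), and the replicate block gave 4831 genes higher and 3827 lower. Of the 126 other genes named, 109 kept their call without any 1 KO or WT array, and none changed direction in any alternative. These genes are only a part of those that the naming rule allowed, so this share does not hold for all genes called.

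Of 62 lists with more members in one direction, the balance turned round for these, and the cause was not tested. With 75th percentile scaling, 3 cyclins, 2 histones, 8 WRKY and 16 MYB factors were higher, fewer than were lower. In the fit of all 15 arrays, 3 arabinogalactan proteins, 4 antioxidant enzymes and 5 WRKY factors were higher and 0 proteasome subunits lower. With the mean of all probes, 6 antioxidant enzymes were higher. With slide as a block, 1 FtsH, Deg and Clp protease and 3 glutathione transferases were lower. At a limit of 0.05, 1 sugar transporter, 1 glutathione transferase, 1 ethylene gene and 3 cellulose synthases were lower and 0 ribosome biogenesis genes higher. With no filter on dim probes, 6 cellulose synthases were lower. In the fit of KO and WT alone, 11 abscisic acid genes and 1 cytosolic ribosomal protein were lower. Cytosolic ribosomal proteins had 2 lower with Storey q-values and 1 with the replicate block. Normexp correction and the authors' table each gave 2 proteasome subunits lower. Leaving out 1 array gave 0 to 2 ribosome biogenesis genes, 0 to 4 histones, 1 to 7 cyclins and mitotic kinases, 5 to 10 arabinogalactan proteins, 4 to 13 WRKY factors higher, and 0 to 1 proteasome subunits, 3 to 6 cellulose synthases, 1 to 8 ethylene genes, 4 to 11 abscisic acid genes, 1 to 13 defensins and thionins, 1 to 6 glutathione transferases lower.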
